A study of Mus musculus with 8 samples.

Results

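The G1 cyclins, their kinases and the inhibitors of those kinases were followed in epithelial cells of mouse skin. The set held 10 genes of the 23432 gene symbols listed in every library, chosen by symbol: the D-type cyclins Ccnd1, Ccnd2 and Ccnd3, the E-type cyclins Ccne1 and Ccne2, the kinases Cdk4 and Cdk6, and the inhibitors Cdkn1b, Cdkn2a and Cdkn2b. Polyadenylated RNA was sequenced in 8 libraries from 4 groups of 2. At E16.5, a late embryonic stage, control and MOF cKO (MOFfl/fl/K14Cre) back skin was compared after sorting K14-H2BGFP+ cells, which carry a nuclear green fluorescent protein under the Krt14 promoter, and removing DAPI+ dead cells. At P0.5, just after birth, control and Kansl1 cKO (Kansl1fl/fl/K14Cre) epidermis was compared after it was lifted off the dermis with dispase, with no sorting. MOF, encoded by Kat8, acetylates lysine 16 of histone H4, and Kansl1 is a subunit of NSL, a complex that contains MOF. In both mutants Cre was driven by the Krt14 promoter, so the deletion was limited to cells in which that promoter had been active, and the mice were of a mixed C57Bl/6J and CD-1 background. Controls were littermates, and the methods allow them to be wildtype or heterozygous. How many animals went into a library is not given in the sources used here, so p-values measure the spread between these libraries.

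Cells pass from G1 into S phase when the retinoblastoma proteins are phosphorylated and release the E2F factors. D-type cyclins with Cdk4 or Cdk6 start that phosphorylation in answer to growth signals, and E-type cyclins with Cdk2 complete it. The INK4 inhibitors p15 (Cdkn2b) and p16 (Cdkn2a) bind Cdk4 and Cdk6 alone, while p27 (Cdkn1b) binds cyclin-CDK complexes of several kinds. In the epidermis, division takes place mostly in the basal layer, and basal cells leave the cycle as they differentiate.

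In MOF cKO, Cdkn2b rose 20.2-fold and was the 1 member of 9 tested that was called. Of all genes tested, 9.59% were called down and 10% up. The fold of Cdkn2b ran from 13.0 to 42.7 with 1 library left out, and it passed the filter on low counts through its level in MOF cKO. Cdk4 was 1.46-fold higher and lay under the fold threshold. In Kansl1 cKO, 0 of 9 members were called, as were 0% of all genes. Between control epithelia, Ccne1, Ccnd3 and Cdk4 fell and Cdkn2b rose from E16.5 to P0.5, a comparison that called 20.6% of all genes down and 19.6% up and in which stage, isolation and sequencer cannot be told apart.

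The members lie on 6 chromosomes of mm10 in the GENCODE M21 annotation. Cdkn2b occupies chr4:89306299-89311039 on the minus strand as a single annotated transcript. It starts upstream of Cdkn2a, which lies at chr4:89274471-89294653 on the same strand and has 2 annotated starts, 16413 and 28840 bases from that of Cdkn2b. The nearer of these gives p19Arf, a protein of another reading frame, and the farther one p16, and a count per gene pools both. Cdk4 lies at chr10:127063534-127067920 and Ccne1 at chr7:38097984-38107534. Parts of the exons of 4 members are shared with a neighbouring coding gene on the other strand, 23.4% of the exon bases of Ccnd1 with Lto1, which is listed as Oraov1, 19.7% of those of Cdk4 with Tspan31, 17.4% of those of Ccne2 with Ints8 and 4.1% of those of Ccnd3 with Bysl. The library kit kept strand, but whether counting used it is not given in the sources used here, so reads in these stretches may not be told apart.

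Promoters from RefSeq (GRCm38.p6) covered 7 of the 10 members, and the 250 bases before the start are printed for the 3 genes whose changes the results turn on. Capitals mark a motif, on either strand. The first is the promoter of Cdkn2b, at chr4:89311033-89311282 on the minus strand, with 1 match to the cyclic AMP response element TGACGTCA, whose first letter lies 46 bases before the start:
Cdkn2b: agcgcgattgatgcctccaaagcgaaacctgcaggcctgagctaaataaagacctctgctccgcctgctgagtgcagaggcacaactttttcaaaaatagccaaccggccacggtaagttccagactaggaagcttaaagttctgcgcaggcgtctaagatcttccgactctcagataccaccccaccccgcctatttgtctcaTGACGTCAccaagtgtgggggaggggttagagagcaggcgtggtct
The promoter of Cdk4, at chr10:127063285-127063534 on the plus strand, held 4 matches to the E-box CACGTG, the element that Myc and its partner Max bind:
Cdk4: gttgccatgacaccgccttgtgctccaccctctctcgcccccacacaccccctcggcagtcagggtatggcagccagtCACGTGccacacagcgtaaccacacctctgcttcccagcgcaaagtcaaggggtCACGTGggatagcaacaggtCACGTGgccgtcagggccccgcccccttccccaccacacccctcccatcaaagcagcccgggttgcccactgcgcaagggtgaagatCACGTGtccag
That of Ccne1, at chr7:38107491-38107740 on the minus strand, held 4 matches to the GC box GGGCGG:
Ccne1: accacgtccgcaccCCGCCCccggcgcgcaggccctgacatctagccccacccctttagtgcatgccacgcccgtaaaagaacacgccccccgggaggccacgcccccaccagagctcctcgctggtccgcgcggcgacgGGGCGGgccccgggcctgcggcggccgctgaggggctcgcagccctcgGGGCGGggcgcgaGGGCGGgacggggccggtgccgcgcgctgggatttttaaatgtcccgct
Among 32851 mouse promoters of the same length, 1.55% held TGACGTCA, 6.02% held CACGTG at least once and 0.0213% at least 4 times, and 32.7% held GGGCGG at least once and 4.09% at least 4 times. An E2F motif, TTTNNCGC, occurred in 4.28% of these promoters, and among members it was found once at Cdk6 and once at each Cdkn2a start. The cyclic AMP element and the E-box were chosen after the sequences were seen. The limit of 4 matches equals the number found at Cdk4 and at Ccne1, so these shares are no test of rarity. A match is a description of letters in this window and not a bound site.

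The libraries held 22484018 to 27561688 reads on genes at E16.5 and 9108709 to 19774643 at P0.5. Values are given as CPM, counts per 1000000 reads on genes after scaling with TMM factors, which align the bulk of the genes between libraries, here separately within each age. Krt5, a basal keratin, was at 16381 to 21611 CPM at E16.5 and 8398 to 9251 CPM at P0.5. Kat8 was at 14.4 and 14.7 CPM in E16.5 control and at 12.4 and 13.9 CPM in MOF cKO, and Kansl1 was at 40.7 and 48.2 CPM in P0.5 control and at 31.4 and 30.6 CPM in Kansl1 cKO, where counts of a whole gene do not resolve the deleted exons. Xist and Ddx3y placed 1 library of the E16.5 controls and 1 of the P0.5 controls with another sex than the other 3 of its age. Fold changes are also given as log2 ratios of the fitted levels. Genes with an adjusted p under 0.01 in the quasi-likelihood test of edgeR and a fold over 1.5 in either direction are named as called. Of 13956 genes tested in MOF cKO, 9.59% were called down and 10% up. Scaling by library size alone in place of TMM moved the median log2 ratio over the genes tested from -0.02 to -0.32 and the called genes from 1338 down and 1395 up to 2743 down and 769 up.

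**Figure D1:**
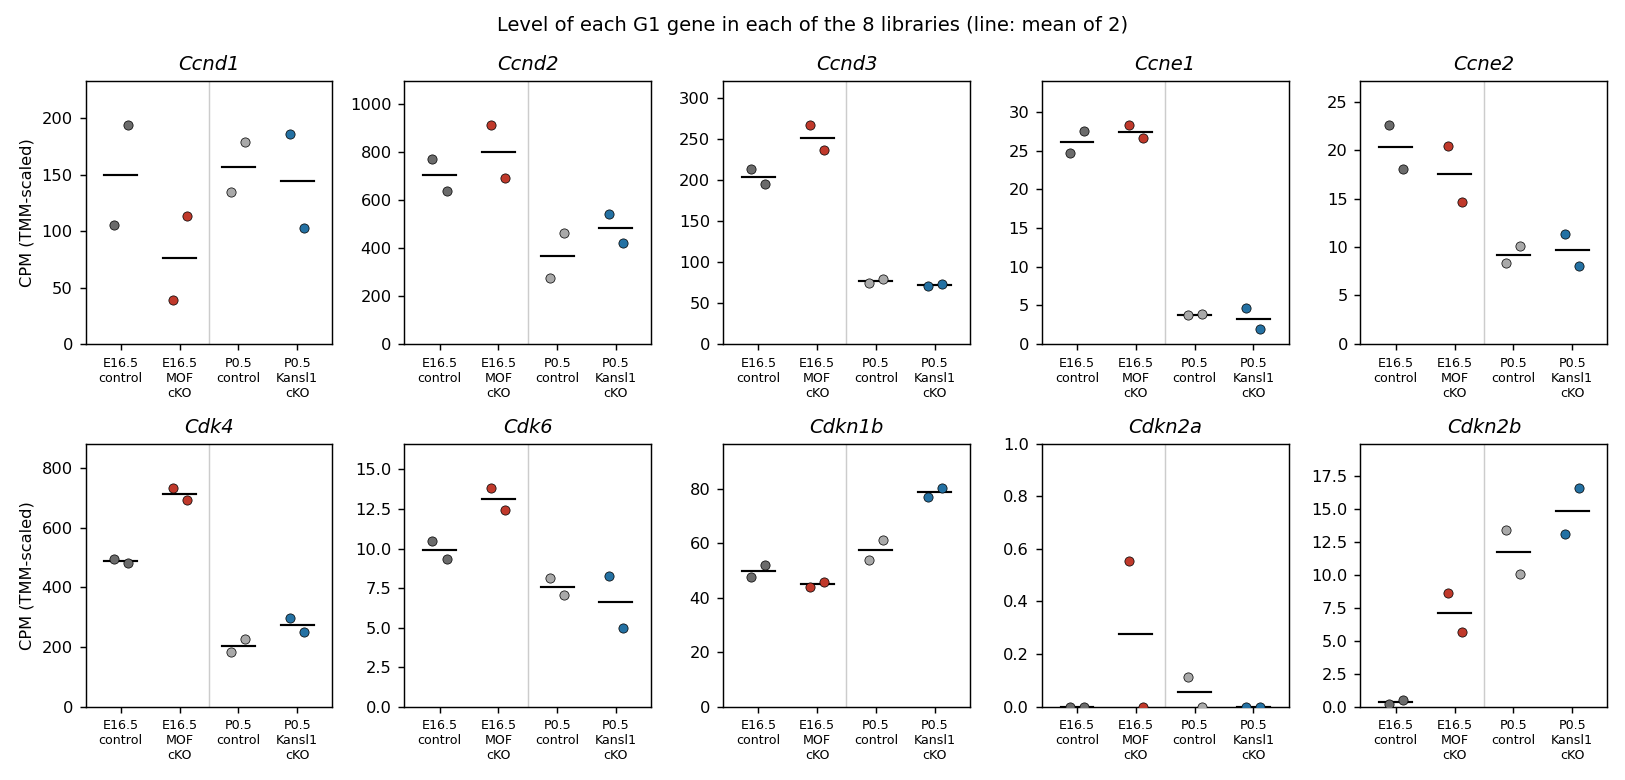
The level of each member in every library, in CPM on a linear axis from 0, with E16.5 to the left and P0.5 to the right of the grey line, each scaled within its age. Points are libraries and lines are means of 2. Cdkn2b stood at 0.163 and 0.542 CPM in E16.5 control while the other 6 libraries held 5.67 to 16.6 CPM.

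D-type cyclins carry growth signals to Cdk4 and Cdk6. Ccnd1 was at 105 and 194 CPM in E16.5 control and at 39.2 and 113 CPM in MOF cKO. The groups overlapped, since the higher MOF cKO library lay above the lower control. The means were 149.6 ± 63.0 and 76.2 ± 52.3 CPM (SD, n = 2), and the log2 fold change of -0.97 (standard error, SE, 0.465, edgeR adjusted p = 0.137) was not called. Single libraries and the filter changed this result. Without MOF cKO replicate 2 the log2 ratio was -1.93 and the edgeR adjusted p 0.00341, and without MOF cKO replicate 1 it was -0.40 with 0.336. Without control replicate 1 it was -1.35 with 0.0105, and without control replicate 2 it was -0.45 with 0.375. With every gene of at least 1 count kept, Ccnd1 was called at -0.98 (edgeR adjusted p = 6.92e-05), and it was called with the replicate number as a block, a fit given with the other alternatives. Its neighbour Oraov1 had a log2 ratio of -0.16 (edgeR adjusted p = 0.470).

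Ccnd2 was the D-type cyclin with the most reads at both ages. It was at 770.4 and 636 CPM in E16.5 control and at 914 and 690.0 CPM in MOF cKO, groups that overlapped, with a log2 ratio of 0.19 (edgeR adjusted p = 0.379) that became -0.12 with scaling by library size alone. Ccnd3 was at 214 and 195 CPM in control and at 267 and 236 CPM in MOF cKO. Both MOF cKO libraries lay above both controls, but the log2 fold change of 0.30 (95% confidence interval 0.037 to 0.57, edgeR adjusted p = 0.0706) was not called and was -0.0042 with library size alone.

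At P0.5, none of the D-type cyclins was called in Kansl1 cKO. Ccnd1 was at 134 and 179 CPM in control and at 186 and 103 CPM in Kansl1 cKO, with both control libraries between the mutant ones. Ccnd2 was at 276 and 461 CPM in control and at 543 and 419.5 CPM in Kansl1 cKO, a log2 ratio of 0.39 (95% confidence interval -0.27 to 1.04). Ccnd3 was at 74.4 and 79.4 CPM and at 70.1 and 73.7 CPM, and its log2 fold change of -0.10 had the narrowest interval of the 3, from -0.45 to 0.26.

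Compared per length, as TPM, in which each count is divided by gene length and a library then sums to 1000000, Ccnd2 made up 57.7% of the summed D-type cyclin level in E16.5 control and Ccnd1 24.4%, with 17.4% and 31.5% in the single libraries. In MOF cKO the Ccnd1 share was 6.13% and 19.3%, and the libraries of the groups overlapped. Ccnd1 held a larger share at P0.5, 43.0% and 39.5% in control and 37.6% and 29.2% in Kansl1 cKO. Ccnd3 showed the reverse, with 17.9% in E16.5 control, 22.0% in MOF cKO, 11.1% in P0.5 control and 9.41% in Kansl1 cKO. Taking the longest transcript as gene length, in place of all exons, raised the Ccnd3 share to 25.9%, 30.7%, 17.0% and 14.4% in the same order, and in E16.5 control it put Ccnd3 above Ccnd1, which was then at 19.6%.

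**Figure D2:**
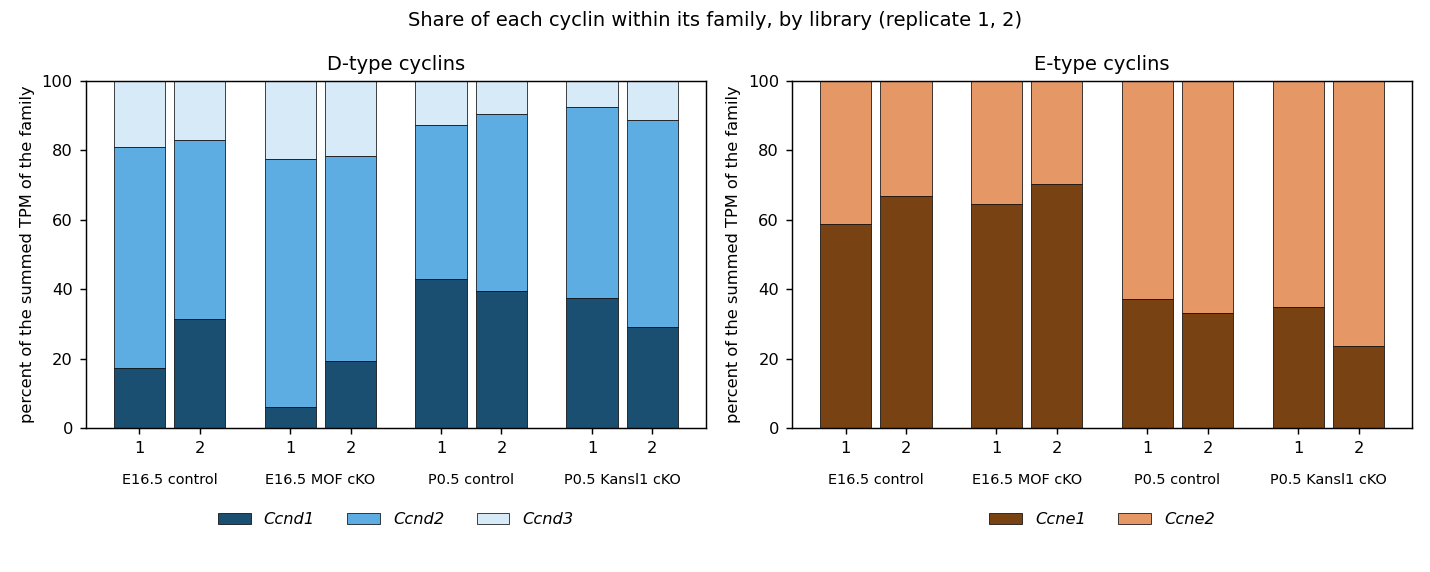
Stacked bars of the share of each D-type (left) and E-type (right) cyclin in the summed TPM of its family, in percent, for replicates 1 and 2 of each group. Ccnd2 was the largest D-type share in all 8 libraries, and Ccne1 was over 58% of the E-type level in each E16.5 library and under 38% in each P0.5 library.

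E-type cyclins activate Cdk2 at the end of G1. Ccne1 was at 24.7 and 27.6 CPM in E16.5 control and at 28.4 and 26.6 CPM in MOF cKO, with overlap and a log2 ratio of 0.07 (95% confidence interval -0.26 to 0.41) that became -0.23 with library size alone. Ccne2 was at 22.6 and 18.0 CPM in control and at 20.4 and 14.7 CPM in MOF cKO, a log2 ratio of -0.22 (95% confidence interval -0.72 to 0.29). Neither was called. At P0.5 both were low. Ccne1 had 33 and 59 counts in control and 96 and 24 counts in Kansl1 cKO, which is 3.78 and 3.81 CPM against 4.65 and 1.90 CPM. The mutant libraries lay on either side of the controls, and the interval of the log2 fold change ran from -1.29 to 0.92. A change of 1.5-fold in either direction lay within that interval and was not excluded. Ccne2 was at 8.36 and 10.1 CPM in control and at 11.3 and 8.06 CPM in Kansl1 cKO, a log2 ratio of 0.07.

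Between the controls of both ages, which were fitted in 1 model over 8 libraries, Ccne1 fell 5.91-fold to P0.5, from 24.1 ± 2.05 CPM to 4.07 ± 0.0466 CPM (SD, n = 2). The log2 ratio was -2.56 (SE 0.338, edgeR adjusted p = 0.000223). Ccnd3 fell by 1.19 on the log2 scale (edgeR adjusted p = 7.83e-05). Of 14565 genes in this fit, 20.6% were called down and 19.6% up, and of the 9 members tested 3 were called down and 1 up. Ccne2, with a log2 ratio of -0.91 (edgeR adjusted p = 0.0145), and Ccnd2, with -0.71 (0.0364), lay lower at P0.5 in both libraries and were not called. Both were called down with library size alone (-1.25 and -1.04) and without a filter on low counts (-0.82 and -0.62), and Ccnd2 also without P0.5 control replicate 2 (-1.14). The log2 ratio had a median of -0.13 over all genes in this comparison and -0.46 with library size alone, under which 4375 genes were called down and 2144 up in place of 2997 and 2854. Ccnd1, at 0.28, turned to -0.046 under that scaling. The Ccne1 share of the E-type level was 62.8 ± 5.60% (SD, n = 2) in E16.5 control and 35.2 ± 2.87% in P0.5 control.

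Cdk4 and Cdk6 are the catalytic partners of the D-type cyclins. Cdk4 was at 494 and 480.5 CPM in E16.5 control and at 734 and 693 CPM in MOF cKO. The groups did not overlap, and the adjusted p was 0.00486 from edgeR, but the fold of 1.46 (log2 0.55, standard error 0.0982) was under 1.5 and Cdk4 was not called. With library size alone the log2 fold change was 0.24 (edgeR adjusted p = 0.0700), and in TPM, which carries no TMM factor, Cdk4 was at 578 and 573 in control and at 625 and 610.2 in MOF cKO. Tspan31, the gene it overlaps on the other strand, was called up at 0.61 (edgeR adjusted p = 0.00627). In Kansl1 cKO, Cdk4 was at 298 and 252 CPM against 184 and 226 CPM in control. These groups did not overlap either, and the log2 fold change was 0.42 (95% confidence interval -0.026 to 0.87, edgeR adjusted p = 0.341). Tspan31 there had a log2 ratio of 0.03. Between controls, Cdk4 fell by 1.03 on the log2 scale to P0.5 (SE 0.149, edgeR adjusted p = 0.000374), as did Tspan31 by 0.64 (edgeR adjusted p = 0.00244).

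Cdk6 made up between 0.414% and 1.02% of the summed Cdk4 and Cdk6 level per length in all 8 libraries. It was at 10.5 and 9.31 CPM in E16.5 control and at 13.9 and 12.4 CPM in MOF cKO, with no overlap. The log2 ratio of 0.41 (edgeR adjusted p = 0.151) became 0.099 with library size alone. At P0.5 it was at 8.14 and 7.05 CPM in control and at 8.23 and 4.98 CPM in Kansl1 cKO, with overlap and a log2 ratio of -0.18 (95% confidence interval -0.94 to 0.58).

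Cdkn1b encodes p27, a CDK inhibitor linked to cell cycle exit. It was at 47.5 and 52.2 CPM in E16.5 control and at 44.1 and 45.7 CPM in MOF cKO. Both MOF cKO libraries lay lower, with a log2 ratio of -0.15 (95% confidence interval -0.43 to 0.13, edgeR adjusted p = 0.356). With library size alone it was -0.46 (edgeR adjusted p = 0.0202), also not called. In TPM, Cdkn1b was at 39.7 and 44.5 in control and at 26.8 and 28.7 in MOF cKO. In Kansl1 cKO the order was turned, with 54.0 and 61.4 CPM in control and 77.0 and 80.5 CPM in the mutant. That difference of 0.45 on the log2 scale (SE 0.156) had a p of 0.0245 before and 0.258 after adjustment in edgeR, and was not called. The MOF and Kansl1 effects on Cdkn1b differed by -0.63 (95% confidence interval -1.06 to -0.20, edgeR adjusted p = 0.0559), which did not pass. At P0.5 control it lay 0.43 higher than at E16.5 control (edgeR adjusted p = 0.0219), also not called.

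Cdkn2a and Cdkn2b are neighbours and encode INK4 inhibitors. Cdkn2a was close to absent. It had 0 counts in both E16.5 controls, which allows up to 0.0978 and 0.108 CPM at a limit of 3 counts, 11 and 0 counts in MOF cKO, 1 and 0 in P0.5 control, and 0 and 0 in Kansl1 cKO. It passed the filter on low counts in no comparison. The 11 counts of MOF cKO replicate 1 correspond to 0.552 CPM.

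Cdkn2b had 5 and 15 counts in E16.5 control and 171 and 134 counts in MOF cKO, which is 0.163 and 0.542 CPM against 8.58 and 5.67 CPM. Both MOF cKO libraries lay far above both controls. The log2 fold change was 4.34 (SE 0.610, 95% confidence interval 2.91 to 5.77, edgeR adjusted p = 0.00193). Since 1 of 2 controls lay under the filter's limit of 0.393 CPM, Cdkn2b was tested because of its level in MOF cKO. The size of the rise rested on the low control counts: without control replicate 1 it was 3.70 and without control replicate 2 it was 5.42, and the adjusted p from edgeR stayed between 0.000111 and 0.00474 with any 1 library left out. At P0.5, Cdkn2b was at 13.4 and 10.02 CPM in control and at 13.1 and 16.6 CPM in Kansl1 cKO, with overlap and a log2 ratio of 0.35 (95% confidence interval -0.23 to 0.92, edgeR adjusted p = 0.527).

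From E16.5 to P0.5 control, Cdkn2b rose by 5.26 on the log2 scale (SE 0.476, edgeR adjusted p = 2.84e-05). Here too 1 of 2 E16.5 controls lay under the limit of the filter, 0.473 CPM, so Cdkn2b was tested because of its level in the other groups. Without E16.5 control replicate 1 this was 4.74, and without replicate 2 it was 6.32. This comparison and that of MOF cKO share the E16.5 control libraries. Per length, Cdkn2b was at 0.978 ± 0.752 TPM in E16.5 control, 14.4 ± 3.82 TPM in MOF cKO, 22.1 ± 2.36 TPM in P0.5 control and 27.4 ± 1.67 TPM in Kansl1 cKO (SD, n = 2). It was the ninth of 10 members by level in E16.5 control and the fifth in Kansl1 cKO, but its place against Ccnd3 depended on gene length. Taken over all exons, Ccnd3 lay below it in Kansl1 cKO at 21.2 TPM, and by the longest transcript above it, at 37.1 against 21.1 TPM.

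The MOF and Kansl1 effects were compared in 1 fit over all libraries, in which 2.92% of 14565 genes were called. Cdkn2b was tested because of its level outside the E16.5 controls, of which 1 of 2 lay under the filter's limit of 0.473 CPM. It was the 1 member of 9 called, with a MOF effect 3.96 higher on the log2 scale (SE 0.594, 95% confidence interval 2.62 to 5.30, edgeR adjusted p = 0.00553). The call was lost in 6 of 8 fits that left out 1 library, those without E16.5 control replicate 1, either MOF cKO library, P0.5 control replicate 1 or either Kansl1 cKO library, where the difference ran from 3.47 to 4.22 and the adjusted p reached 0.0225. For the other 8 members the difference was between -0.89 for Ccnd1 and 0.55 for Cdk6 and none passed.

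**Figure D3:**
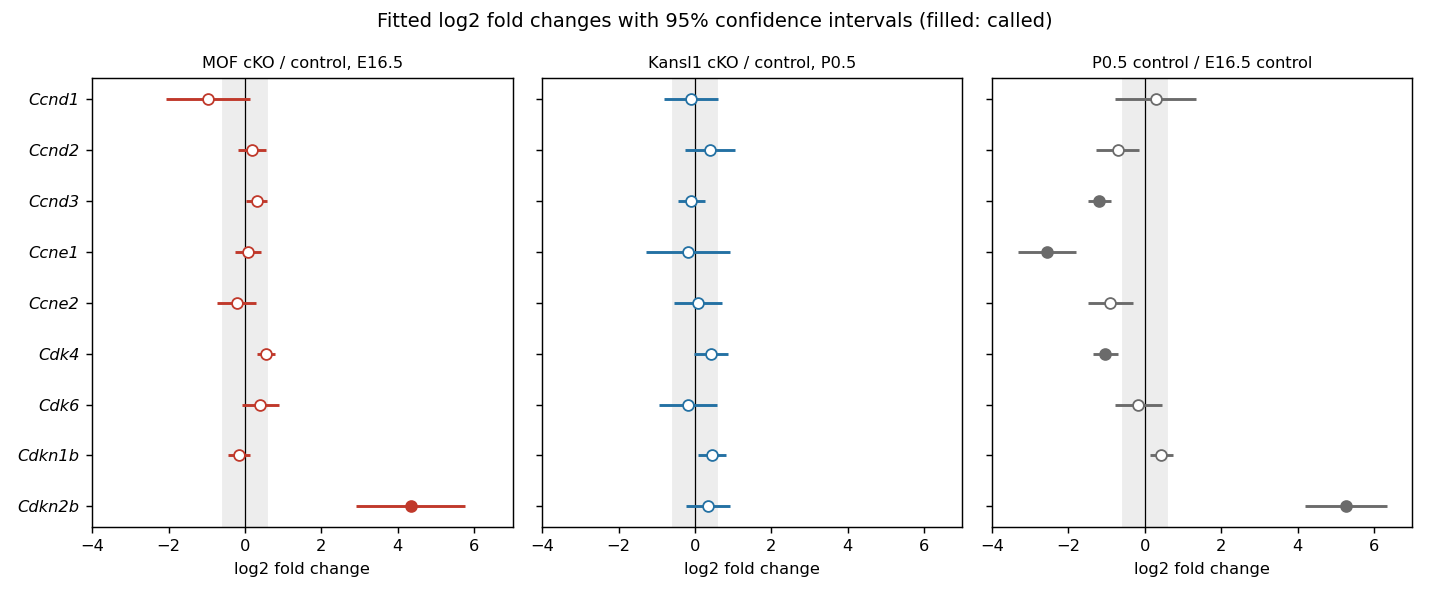
Fitted log2 fold changes of the 9 members tested, with 95% confidence intervals, in MOF cKO (left), Kansl1 cKO (middle) and between controls (right). Filled points were called and the grey band marks folds under 1.5. Cdkn2b, at 4.34 and 5.26, stands to the right of all other members in the left and right panels.

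In MOF cKO 5 of the 9 members had groups that did not overlap, against 72.6% of all genes tested. The median log2 fold change of the members was 0.19 and that of all genes -0.02. In Kansl1 cKO 3 of 9 had groups that did not overlap, against 48.7% of all genes. No gene of 13031 was called in Kansl1 cKO by edgeR (0%), 15.7% had an unadjusted p under 0.05, and DESeq2 called 0.725% of 12407 genes. Of the members 1 of 9, Cdkn1b, had an unadjusted p under 0.05 and DESeq2 called 0, with a smallest adjusted p of 0.398.

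The order of levels per length was led by Cdk4 and Ccnd2 in all 4 groups. In E16.5 control Cdk4 was at 576 ± 3.68 TPM and Ccnd2 at 287 ± 35.0 TPM (SD, n = 2), followed by Ccnd1 at 122 and Ccnd3 at 89.3 TPM, whose libraries overlapped. Cdkn1b at 42.1 and Ccne1 at 37.7 TPM overlapped too, and Ccne2 at 22.3, Cdk6 at 2.72 and Cdkn2b at 0.978 TPM followed. In P0.5 control Cdk4 was at 168 ± 40.6 TPM, above Ccnd2 at 106 and Ccnd1 at 89.0 TPM, whose libraries overlapped. Cdkn1b followed at 33.7 and Ccnd3 at 23.3 TPM. The place of Ccnd3 depended on gene length, since by the longest transcript it was at 40.9 TPM in P0.5 control, above Cdkn1b at 26.1 TPM, and at 151 TPM in E16.5 control, above the mean of Ccnd1 at 115 TPM.

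Other genes of the pathway were taken from 5 lists, chosen with results of these data known, of which 76 of 77 genes were tested. In MOF cKO 9 were called down and 4 up, beside 9.59% and 10% of all genes. Their median log2 fold change was -0.02, that of all genes. With library size alone 22 were called. Among the retinoblastoma and E2F genes, 3 of 17 fell and 0 rose. Tfdp2, a partner subunit of E2F factors, fell from 51.2 and 43.7 CPM to 9.09 and 8.72 CPM, a log2 ratio of -2.41 (SE 0.158, edgeR adjusted p = 0.000229). Rbl2, which encodes the retinoblastoma relative p130, fell from 43.9 and 36.3 CPM to 14.4 CPM in both libraries (log2 -1.48, edgeR adjusted p = 0.000775). Lin52, a subunit of the DREAM complex in which p130 represses cell cycle genes, fell by 1.32 on the log2 scale. Rb1 had a log2 ratio of 0.50, Rbl1 of -0.35 and E2f1 of -0.27, and none of these passed.

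Of 10 genes of the CDK2 axis and other CDK inhibitors tested, 2 fell and 1 rose. Over all genes, 9.59% were called down and 10% up. Cdkn1a, which encodes the p53 target p21, was at 88.4 and 126 CPM in control and at 438 and 611 CPM in MOF cKO. It rose by 2.29 on the log2 scale (SE 0.217, edgeR adjusted p = 0.000602). Cdk2, the partner of the E-type cyclins, fell by 0.62 and Mnat1, an assembly factor of the kinase that activates CDKs, fell by 1.26. Cdkn1c (p57) had a log2 ratio of 0.52 (edgeR adjusted p = 0.0438), Cdkn2c (p18) of -0.68 and Cdkn2d (p19, the INK4 protein) of -0.24, and none of the 3 was called. With 1 library left out, Cdkn1c ran from 0.32 to 0.76 and Cdkn2c from -1.33 to -0.25. Cdkn2c was called with the replicate number as a block.

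None of 14 genes in the turnover of G1 cyclins and p27 was called in MOF cKO. Over all genes, 9.59% were called down and 10% up. Of the 14, 3 had an unadjusted p under 0.05 in edgeR, as had 6820 of all 13956 genes. The smallest adjusted p was 0.00742 from edgeR. Of 17 regulators of the Cdkn2a and Cdkn2b locus, Ezh1, a methyltransferase of lysine 27 of histone H3, fell by 1.26 and Kdm6b, a demethylase of the same residue, rose by 0.83. Of 18 transcription factors acting on G1 genes, 3 fell and 2 rose. Tcf7 fell by 1.61, Mycl1 by 0.85 and Mybl2 by 0.63. Trp53, which encodes p53, rose from 274 and 272 CPM to 594 and 595 CPM (log2 1.12, edgeR adjusted p = 0.000490), and Myc rose from 38.9 and 33.0 CPM to 80.1 and 79.8 CPM (log2 1.15, edgeR adjusted p = 0.000867). Of these 13 calls, 4 were lost when 1 library was left out. Lin52 lost its call without any 1 of the 4 libraries (log2 -1.50 to -1.10, adjusted p up to 0.0761 from edgeR). Cdk2 lost it without either control or MOF cKO replicate 1 (-0.64 to -0.59, adjusted p up to 0.0201). Kdm6b without control replicate 1 or either MOF cKO library was at 0.59 to 0.84 (adjusted p up to 0.0161), and it was at 0.53 with library size alone. Mybl2 without the same libraries was at -0.68 to -0.53 (adjusted p up to 0.0436). The other 9 held.

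**Figure D4:**
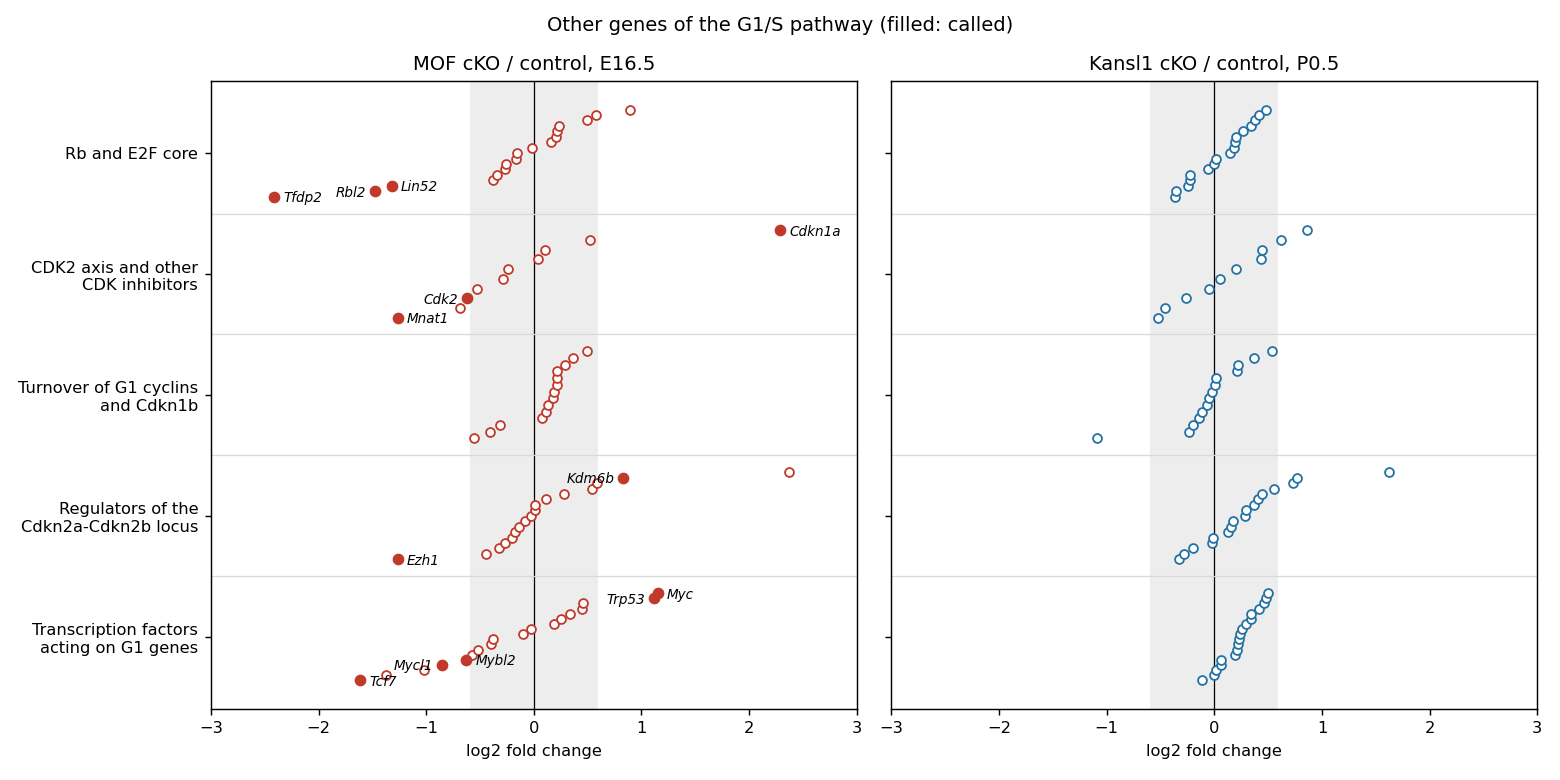
Log2 fold changes of the tested genes of 5 pathway lists, 1 list per row, in MOF cKO (left) and Kansl1 cKO (right). Filled, named points were called and the grey band marks folds under 1.5. In MOF cKO 13 of 76 were called, with Tfdp2 at -2.41 and Cdkn1a at 2.29 as the ends of the range of called genes, and in Kansl1 cKO 0 were.

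In Kansl1 cKO 0 of the 76 were called by edgeR or by DESeq2, beside 0% and 0.725% of all genes. An unadjusted p under 0.05 in edgeR was found for 7 of the 76, beside 15.7% of all genes. Of these 7, Rb1, Cdk2, Cdkn2d, Bmi1 and Ezh2 were higher and Mnat1 and Fbxo4 lower. The largest of these was Fbxo4 at -1.09 (edgeR adjusted p = 0.307). Cdk2 had a log2 ratio of 0.62, Rb1 of 0.48 and Cdkn2d of 0.86, with adjusted p between 0.238 and 0.258 from edgeR. Cdkn1a was at 262 and 183 CPM in control and at 117 and 207 CPM in Kansl1 cKO, with overlap and a log2 ratio of -0.46 (95% confidence interval -1.18 to 0.27). Cdkn1c had -0.05, Cdkn2c 0.44, Rbl1 0.27, Rbl2 -0.0039 and E2f1 -0.24 on the same scale.

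Between controls, 31 of the 76 were called down and 9 up at P0.5, beside 20.6% and 19.6% of all genes. Among retinoblastoma and E2F genes 9 of 17 fell, led by E2f7 (log2 -2.43), E2f1 (-2.01) and E2f3 (-1.82), with Rbl1 at -1.41, and Lin9 rose by 0.96, while Rb1 (0.10) and Rbl2 (-0.31) were not called. In the CDK2 axis, Cdc25a, a phosphatase that activates Cdk2, fell by 1.39, Cdkn2d by 1.24, Cdkn1c by 1.07 and Cdk2 by 0.78, and Cdkn1a rose by 1.27, Cdk7 by 0.71 and Ccnh by 0.71. Cdkn2c, at -0.53, was not called. Of the turnover genes, Skp2, the receptor through which p27 is marked for degradation, fell by 1.59, its cofactor Cks1b by 1.12 and Rnf123 by 1.05, and Rbx1 rose by 0.82 and Skp1a by 0.64. Of the locus regulators 5 fell and 0 rose: Kdm6b (-1.51), Ezh2 (-1.46), Pcgf2 (-1.40), Cbx2 (-0.94) and Suz12 (-0.62). Of the transcription factors Mybl2 (-2.58), Foxm1 (-2.02) and Trp53 (-1.63) fell most, and Klf4 (1.05), Mycl1 (0.86) and Myc (0.68) rose most. The calls of E2f7, E2f1, E2f3, Rbl1, Cdc25a, Skp2, Rnf123, Rbx1, Kdm6b, Ezh2, Pcgf2, Mybl2, Foxm1, Trp53 and Mycl1 held with any 1 of the 8 libraries left out. Of the other 13 named genes that were called, 10 lost the call without E16.5 control replicate 1, 12 without E16.5 control replicate 2, 11 without P0.5 control replicate 1 and 5 without P0.5 control replicate 2, and 1 or 2 without each mutant library. Their largest adjusted p in these fits was 0.144, for Suz12 without E16.5 control replicate 1, where its log2 fold change was -0.40. With library size alone 7 named rises were no longer called, those of Lin9, Cdk7, Ccnh, Rbx1, Skp1a, Mycl1 and Myc.

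Proliferation markers were read beside the members. In MOF cKO 3 of 16 fell, Ccnb2, Bub1 and Mcm6, and 0 rose, beside 9.59% of all genes called down and 10% up. Mki67 had a log2 ratio of -0.62 (edgeR adjusted p = 0.0394) and Pcna of 0.22 that became -0.084 with library size alone. With 1 library left out, the ratio of Mki67 ran from -0.85 to -0.33. Between controls 13 of 16 fell at P0.5, beside 20.6% of all genes called down. Mki67 (-1.09) and Pcna (-0.77) were among them, calls that did not hold with each library left out. In bulk RNA, fewer cells of a type and less RNA per cell cannot be told apart.

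Markers of other cells were read beside the rise of Cdkn2b. At E16.5 the macrophage and endothelial sums were higher in both MOF cKO libraries than in both controls. The sums of melanocyte, dermal fibroblast, and T cell and Langerhans cell markers overlapped between these groups. Beside 10% of all genes called up in MOF cKO, 8 of 14 macrophage and myeloid markers were called up, and all 14 were higher. Their summed level was 23.7 to 48.5 CPM in E16.5 control, 117 to 149 CPM in MOF cKO, 217 to 252 CPM in P0.5 control and 313 to 342 CPM in Kansl1 cKO. C1qa, 1 of the 14, was at 0.0653 and 0.181 CPM in E16.5 control and at 8.58 and 7.66 CPM in MOF cKO. Its control values lay near the limits at 3 counts, 0.0978 and 0.108 CPM, so its rise is no measure of the whole list. Of 12 dermal fibroblast markers 8 were higher and 4 lower in MOF cKO, with a median log2 ratio of 1.03, and 0 were called. Of these 12, 11 had an unadjusted p under 0.05 in edgeR, as had 6820 of all 13956 genes, and the smallest adjusted p was 0.0133. Their sums were 2606 to 3400 CPM in control and 2916 to 3615 CPM in MOF cKO. Of 8 melanocyte markers 7 were higher and 0 were called, with sums of 25.4 to 57.2 CPM and 28.2 to 91.8 CPM at E16.5, and 516 to 590.2 CPM in P0.5 control and 1151 to 1232 CPM in Kansl1 cKO. Of 6 endothelial markers 1 was called up, with sums of 6.49 to 7.47 CPM in control and 11.8 to 23.7 CPM in MOF cKO. The sum of 6 T cell and Langerhans cell markers was 10.2 to 11.9 CPM over all E16.5 libraries, with 2 to 4 of them at 0, and that of 11 epithelial markers was 37609 to 47200.4 CPM. The part of these cells in the level of Cdkn2b was not tested.

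**Figure D5:**
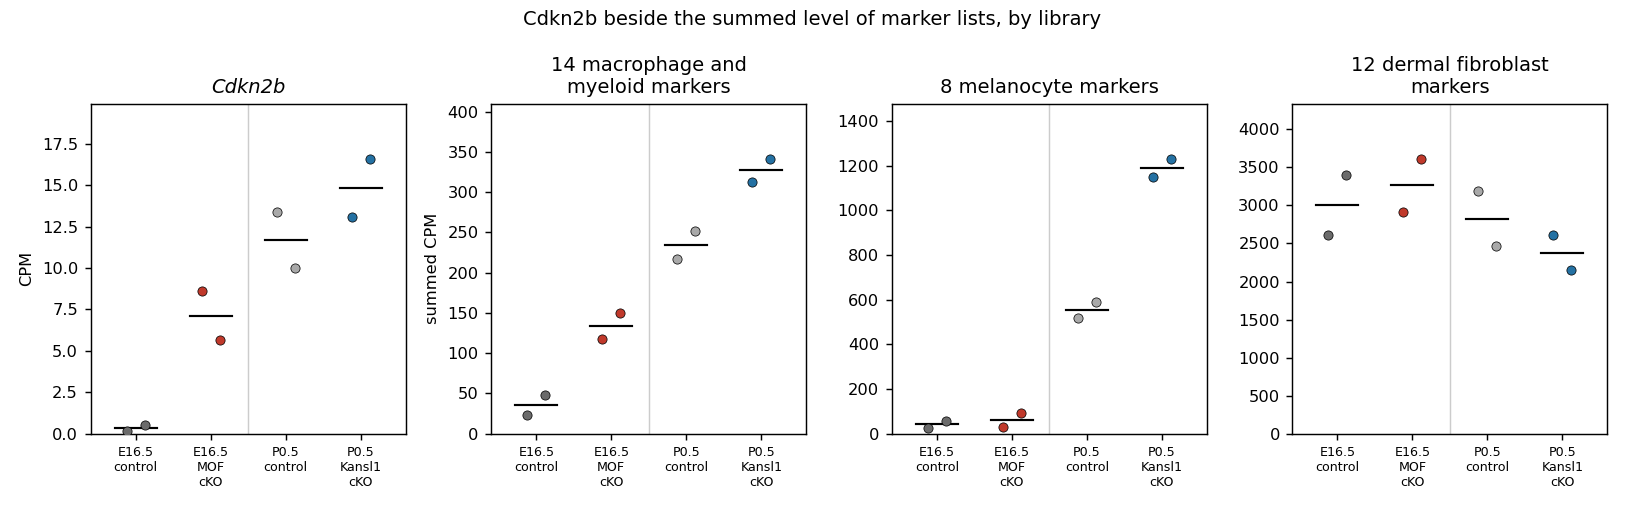
Cdkn2b (CPM) and the summed CPM of macrophage and myeloid, melanocyte and dermal fibroblast markers in every library, on linear axes from 0, scaled within each age. Lines are means of 2. Cdkn2b and the macrophage sum were both lowest in the 2 E16.5 control libraries, at 0.163 and 0.542 CPM and at 23.7 and 48.5 CPM.

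Across the 8 libraries, the genes with levels most like those of Cdkn2b among 12761 compared, by Pearson correlation of log2(CPM + 1), were 1810011O10Rik (r = 0.994), Msr1, a scavenger receptor of macrophages (r = 0.994), and Rpl5, a ribosomal protein (r = 0.993). The points share 4 groups that differ in age, isolation and depth, so the correlation is a description.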

How the data were processed

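Polyadenylated RNA of 8 libraries (4 groups of 2) was analysed. The authors prepared directional libraries, read them as pairs on a HiSeq (E16.5) or a NovaSeq (P0.5) and aligned them to mm10, with HISAT2 per the article and TopHat2 per the submitters' processing notes. The values deposited by the authors are raw read counts per gene, made with HTSeq. The strand setting and annotation are not given in the sources used here. Entries that name no gene, 21.1% to 26.0% of a library, were left out.

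After filterByExpr and TMM scaling, counts were compared with the quasi-likelihood test of edgeR 4.0.16 (R 4.3.3) with Benjamini-Hochberg adjustment over all genes tested, each mutant against its own control and, for ages and for the difference of effects, in 1 fit over 8 libraries. The thresholds are those of the article, whose tool, DESeq2 (here 1.42.0), was an alternative, beside other scalings, filters, thresholds, a replicate block and leaving out each library. Symbols were matched to GENCODE M21 (98.4%) for positions and the exon lengths behind TPM. The steps were tested on simulated counts. Named were all members, of the 5 pathway lists the called genes (beyond 6 per list, the 3 largest falls and rises) and a few fixed genes, Mki67 and Pcna, and the 3 genes most like the called member, each averaging 1 CPM or more. The members and lists were chosen with earlier results of these data known. Counts limit precision to counting error beside the spread of 2 libraries.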

Additional observations from a re-analysis of the deposited data

Results flagged for a closer look

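For 5 genes the MOF effect at E16.5 and the Kansl1 effect at P0.5 differed in a test of the difference itself, a contrast in 1 edgeR fit over 8 libraries that called 2.92% of genes. Cdkn2b was tested because of its level outside the E16.5 controls, of which 1 of 2 lay under the filter's limit. Its log2 fold changes were 4.34 and 0.35 in the separate fits, and the difference was 3.96 (standard error 0.594, adjusted p = 0.00553). For Cdkn1a they were 2.29 and -0.46, with a difference of 2.72 (standard error 0.428, adjusted p = 0.00679). For Tfdp2 they were -2.41 and -0.05, with a difference of -2.39 (standard error 0.224, adjusted p = 0.000920). For Rbl2 they were -1.48 and -0.0039, with a difference of -1.50 (standard error 0.262, adjusted p = 0.00934), and for Mycl1 -0.85 and 0.30, with a difference of -1.18 (standard error 0.185, adjusted p = 0.00678). With 1 library left out, the call was lost in 6 of 8 fits for Cdkn2b and Cdkn1a, 7 for Rbl2, 8 for Mycl1 and 0 for Tfdp2, and the differences kept their signs. None of the 5 calls held with the replicate number as a block, a fit given with the other alternatives. The 2 mutants were studied at different ages, after different isolation and on different sequencers, which cannot be told apart from the gene deleted.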

How the results depend on the processing

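Alternatives were recomputed 1 choice at a time. Of the counts of calls, 65 stayed within 1.5 times the reported value and 12 did not. The 65 include counts that were 0 and stayed 0, as for the members in Kansl1 cKO, where edgeR called no gene. In MOF cKO the number of members called was 2 with every gene of at least 1 count kept and with no fold threshold, and 1 to 2 with 1 library left out. The second was Ccnd1 (log2 -0.98) in the first case and Cdk4 in the second. Of all genes, the first setting called 2197 down and 1837 up of 17539 tested. No fold threshold gave 1366 down and 1513 up of 13956. The pathway genes called were 22 with library size alone. The members whose MOF and Kansl1 effects differed numbered 0 to 1 with 1 library left out. No call was gained among members in Kansl1 cKO under any alternative run.

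With library size alone, MOF log2 fold changes turned to -0.12 for Ccnd2, -0.0042 for Ccnd3, -0.23 for Ccne1 and -0.084 for Pcna. Those between controls turned to -0.046 for Ccnd1 and -0.25 for Rb1, and the differences of effects to -0.034 for Ccne1 and -0.13 for Cdk4. With every gene kept Rbl2 in Kansl1 cKO was 0.0088 and in 1 fit over 8 libraries 0.026. With 1 library left out, 16 uncalled values also changed sign. In MOF cKO Ccnd2 ran from -0.028 to 0.38, Ccne1 from -0.0068 to 0.17, Ccne2 from -0.47 to 0.0045 and Cdkn2d from -0.58 to 0.027. In Kansl1 cKO Ccnd1 ran from -0.64 to 0.25, Ccne1 from -1.04 to 0.29, Ccne2 from -0.24 to 0.29, Cdk6 from -0.64 to 0.12, Cdkn1c from -0.51 to 0.49, E2f1 from -0.74 to 0.083 and Rbl2 from -0.19 to 0.19. Between controls Cdk6 ran from -0.27 to 0.028 and Rb1 from -0.026 to 0.35. The differences ran from -0.65 to 0.10 for Ccnd2, -0.25 to 1.05 for Ccne1 and -0.066 to 0.26 for Cdk4. The cause was not tested.

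The methods describe pairs of samples with littermate controls, but no source used here says that the replicate numbers mark those pairs. Deviations of libraries with the same number correlated at 0.27 in the MOF and -0.30 in the Kansl1 comparison. With the replicate number as a block, 2 members were called in MOF cKO, Cdkn2b and Ccnd1 (log2 -1.09, adjusted p = 2.19e-11 from edgeR), and all genes called were 2263 down and 1903 up, in place of 1338 and 1395. Cdkn2c (log2 -0.76, adjusted p = 0.00872 from edgeR) and Mki67 (-0.61, 6.91e-09) also gained a call under it. In the difference of effects the block left 0 genes called down and 1 up, in place of 170 and 256, and 0 members, with Cdkn2b at 3.95 (adjusted p = 0.0354), Rbl2 at -1.52 (0.0319), Tfdp2 at -2.38 (0.0152), Cdkn1a at 2.75 (0.0294) and Mycl1 at -1.18 (0.0343), all from edgeR. Under it in Kansl1 cKO Cdkn1c was 0.0053 and Rbl2 0.015. A block with crossed numbers, added after seeing the data, called 0 members in Kansl1 cKO, with Cdkn1c at 0.017 and Rbl2 at 0.0041.

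With 2 libraries per group, a lone library left in a group is assumed to vary like the others. Depth limits Cdkn2a, Cdkn2b at E16.5 and Ccne1 at P0.5, all with libraries under 60 counts. Taking the longest transcript as length moved 11 of 28 shares by more than their SD and turned the order of Ccnd1 and Ccnd3 in E16.5 control.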
